A study of Mus musculus with 10 samples.

Results

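In mouse keratinocytes, 826 pairs of neighbouring p63 binding peaks stood as isolated two-peak groups, holding 1652 of the 8294 peaks on chromosomes 1 to 19 (19.9%, 95% Wilson interval 19.1 to 20.8). Such a group is a pair of peaks whose midpoints lie at most 10 kb apart, with every other peak more than 10 kb from either of them. Members were chosen by their measured midpoints alone: consecutive midpoints on a chromosome were joined when at most 10 kb apart, and groups of exactly 2 peaks were kept. The remaining peaks were 5864 single peaks and 778 peaks in 228 groups of 3 to 7. Spacing is therefore given as a description, and all intervals in brackets are 95% Wilson intervals that cover counting error only.

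The study profiled chromatin by immunoprecipitation and sequencing in 2 mouse keratinocyte lines, MK1 and MK2, with neither treatment nor genetic change named in the labels. In each line 1 library was made for p63 with the antibody 4A4, 1 for each of H3K4me1, H3K4me3 and H3K27ac (histone methylation and acetylation marks of regulatory elements) and 1 for input chromatin, giving 10 libraries in 5 groups of 2. The peaks come from a single list that pools MK1 and MK2 through an irreproducible discovery rate procedure, which retains peaks that rank alike in both libraries. The list holds coordinates on the mouse build mm10 and nothing else, so peak height and sequencing depth are unknown, the spread between MK1 and MK2 cannot be given, and only the p63 data are described below.

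p63 belongs to the same family as the tumour suppressor p53 and is required for the formation of the epidermis and other stratified epithelia. It binds DNA as a tetramer, at sites made of a pair of half-sites, each with a central CNNG flanked by purines on the 5′ side and pyrimidines on the 3′ side. In keratinocytes many of its sites lie in distal enhancers, and a target gene can have more than 1 bound element near it. Of 8 keratinocyte marker genes (Krt5, Krt14, Krt15, Itga6, Itgb4, Col17a1, Trp63 and Perp), 8 were the nearest gene of at least 1 peak and 4 (Itga6, Itgb4, Trp63 and Perp) of both partners of a two-peak group.

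Sequence was at hand for promoters only, and 37 of 1614 partners (2.29%) overlapped a promoter window. The stretches below therefore do not stand for the partners as a whole. The first 5 stretches below are the parts of the 250 bases upstream of the start that the peak covered. They come from 5 of the 6 groups with the widest peaks over a promoter. Bases of a peak farther upstream are not printed. The sixth, at Tiam1, is not printed because its peak lay almost wholly after the start. Phlda3 lies at chr1:135765835-135766084 on the plus strand, Foxn1 at chr11:78386609-78386858 on the minus strand, Rapgefl1 at chr11:98836535-98836663 on the plus strand, Anxa8 at chr14:34085729-34085978 on the plus strand and Mthfd1 at chr12:76254982-76255231 on the plus strand. The other 4 were chosen after their values were seen, for a site with at most 1 mismatch, and show up to 40 bases on each side of it within the peak and upstream of the start. They are S100a3 at chr3:90588409-90588508 (plus), Mst1 at chr9:108080314-108080413 (plus), Coro7 at chr16:4679741-4679827 (minus) and Ccdc17 at chr4:116596552-116596651 (plus). All are RefSeq promoter sequence of GRCm38.p6, the assembly of mm10, read 5′ to 3′ along the gene. Capitals mark the best match to the p53 family site: 20 bases made of 2 half-sites with no spacer, with both CNNG cores intact and at most 2 mismatches among the purines and pyrimidines. This pattern is its own reverse complement, so 1 pass covers both strands.
Phlda3: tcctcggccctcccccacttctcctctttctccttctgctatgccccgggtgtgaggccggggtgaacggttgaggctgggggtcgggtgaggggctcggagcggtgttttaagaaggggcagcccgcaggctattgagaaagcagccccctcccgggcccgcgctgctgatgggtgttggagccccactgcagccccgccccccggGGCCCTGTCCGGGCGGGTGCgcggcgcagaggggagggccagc
Foxn1: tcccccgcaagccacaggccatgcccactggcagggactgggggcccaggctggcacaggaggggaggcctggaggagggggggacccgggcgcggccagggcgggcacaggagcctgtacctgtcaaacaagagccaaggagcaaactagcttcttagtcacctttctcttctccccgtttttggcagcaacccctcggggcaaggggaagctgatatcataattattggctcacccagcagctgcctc
Rapgefl1: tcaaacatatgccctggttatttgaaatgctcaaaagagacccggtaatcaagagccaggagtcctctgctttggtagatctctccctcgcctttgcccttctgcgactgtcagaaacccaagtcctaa
Anxa8: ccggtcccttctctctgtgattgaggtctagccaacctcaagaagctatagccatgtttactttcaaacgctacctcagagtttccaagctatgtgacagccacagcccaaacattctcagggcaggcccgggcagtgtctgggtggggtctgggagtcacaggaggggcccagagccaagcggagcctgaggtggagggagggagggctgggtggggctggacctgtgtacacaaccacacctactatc
Mthfd1: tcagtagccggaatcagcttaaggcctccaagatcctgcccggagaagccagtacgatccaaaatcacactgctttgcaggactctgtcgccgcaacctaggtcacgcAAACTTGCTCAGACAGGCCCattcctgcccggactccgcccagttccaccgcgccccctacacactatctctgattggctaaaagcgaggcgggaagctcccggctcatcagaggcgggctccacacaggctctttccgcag
S100a3: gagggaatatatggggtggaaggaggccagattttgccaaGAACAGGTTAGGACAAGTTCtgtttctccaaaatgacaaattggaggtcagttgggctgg
Mst1: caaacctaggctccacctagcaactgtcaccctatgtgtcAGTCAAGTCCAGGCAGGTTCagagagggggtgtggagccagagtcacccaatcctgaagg
Coro7: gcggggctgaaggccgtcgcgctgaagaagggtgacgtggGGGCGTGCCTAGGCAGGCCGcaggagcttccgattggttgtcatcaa
Ccdc17: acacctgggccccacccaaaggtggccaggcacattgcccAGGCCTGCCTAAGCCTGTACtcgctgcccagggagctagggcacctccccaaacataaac

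The Mthfd1 stretch held a site with 0 mismatches, at bases -142 to -123 from the start. The sites at S100a3, Mst1, Coro7 and Ccdc17 each had 1 mismatch and the site at Phlda3, at bases -43 to -24, had 2. The printed stretches of Foxn1, Rapgefl1 and Anxa8 held no match at this setting, which says only that such a site is absent from the printed letters.

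Partners of two-peak groups seldom lay on a promoter. Promoter windows, reaching from 250 bases before to 50 bases after a listed start, were used for 18 chromosomes and 16457 of their 20049 protein-coding genes. Of the 1614 partners on those chromosomes, 37 overlapped a window (2.29%, 1.67 to 3.14), against 2.58% of all peaks there, 2.73% of single peaks (2.33 to 3.18) and 2.14% of peaks in longer groups (1.32 to 3.46). The share was therefore close to that of all peaks. The 37 peaks belonged to 36 groups and covered 39 windows of 38 genes. The group with both partners on a promoter, the 1 of its kind, stood at Lexm and Ttc22. The peak midpoint lay upstream of the start at 29 of the 39 windows and downstream at 9.

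A p53 family site stood in 11 of these 39 windows (28.2%, 16.5 to 43.8). It stood in 54 of 235 windows overlapped by any p63 peak (23.0%, 18.1 to 28.8) and in 842 of all 20085 windows (4.19%, 3.92 to 4.48). The interval for two-peak groups included the share for any peak and lay above the share of all windows. Of the 11 sites, 10 lay within the peak, with their centres 12 to 149 bp from its midpoint (median 33.5 bp). The remaining site, at Rapgefl1, lay outside the peak and is not among the letters printed above. The shorter word CATG, searched on both strands at once because it is its own reverse complement, stood in 19 of the 39 windows (48.7%, 33.9 to 63.8) and in 55.9% of all windows. A match is a description of the sequence and does not show that p63 bound there.

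The partners lay on opposite sides of the start at 18 of the 39 windows (46.2%, 31.6 to 61.4) and the groups described next are those with the 6 widest peaks over a promoter. At Phlda3, a p53-induced inhibitor of the kinase Akt, a peak of 768 bp sat at 0.12 kb from the start and its partner of 548 bp at -6.28 kb, where negative values are upstream. At Foxn1, a transcription factor of hair follicle and thymic epithelium, a peak of 673 bp sat at -0.29 kb and a peak of 278 bp at 1.64 kb. Mthfd1, a folate-dependent enzyme of one-carbon metabolism, had peaks of 512 and 444 bp at -0.06 and 0.59 kb, with 168 bp between their facing edges. At Rapgefl1 the partners of 540 and 355 bp sat at -0.39 and 2.82 kb. Tiam1, an exchange factor for the small GTPase Rac, had 592 and 255 bp peaks at 0.28 and -0.93 kb of an internal start. The 531 bp peak over the Anxa8 start and its 239 bp partner both lay inside A630023A22Rik, which overlaps Anxa8. Other promoters under a partner, named after their values were seen, were those of Lamb3 (a laminin chain), Ezr (ezrin, a link from membrane to actin), Epha2 (an ephrin receptor), Ddr1 (a collagen receptor), Padi3 (a differentiation-linked arginine deiminase) and Bcl2l11 (a pro-apoptotic BH3-only protein).

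**Figure D1:**
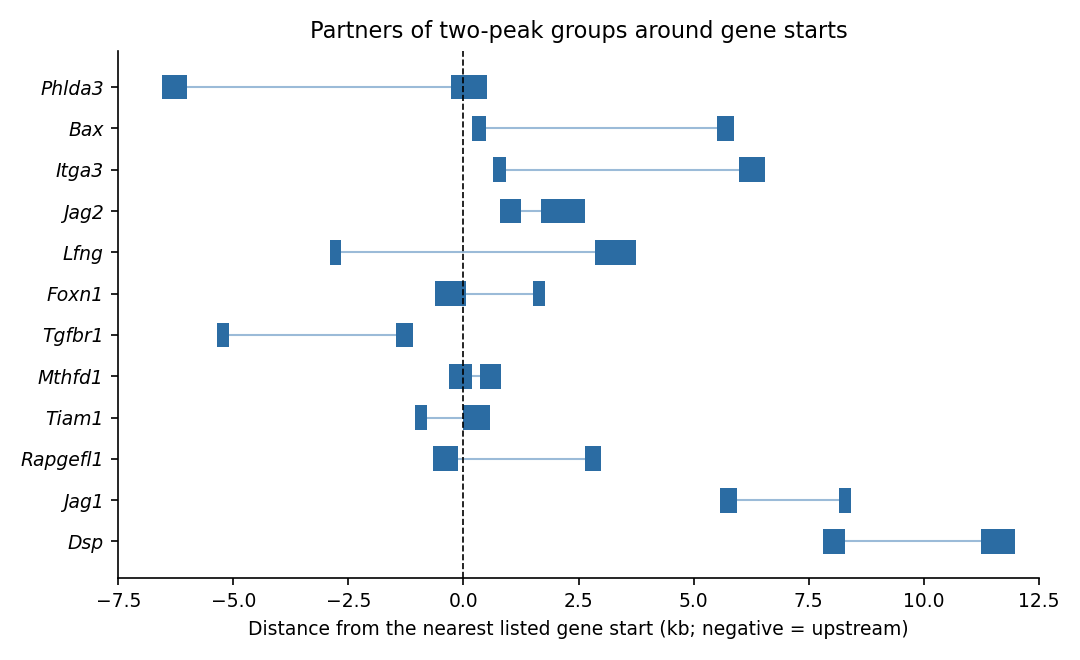
Midpoints and widths of the partners around the nearest listed start of 12 genes, with distance from the start in kb on the horizontal axis and negative values upstream. Blue boxes are peaks drawn to scale and thin lines join partners. At Phlda3, Lfng, Foxn1, Mthfd1, Tiam1 and Rapgefl1 the start (dashed line) lies between the 2 midpoints. The genes were picked by hand among named groups with both partners near a start, so they do not represent all groups. Partners lay on either side of the nearest start in 42 of 586 groups (7.17%).

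Genes of the epidermal adhesion machinery, the Notch pathway and the epidermal transcription factors were often the nearest gene of both partners. In all, 693 of 20560 protein-coding genes on chromosomes 1 to 19 were the nearest gene of both partners of at least 1 group, a background of 3.37%. Of 187 genes in 9 keratinocyte and signalling lists the count was 45 (24.1%, 18.5 to 30.7), and of 76 marker genes of 7 other cell types it was 2 (2.63%, 0.725 to 9.10). For a peak of any kind, 128 of the 187 genes, 12 of the 76 and 4601 of the 20560 were the nearest gene. By list this held for 15 of 16 hemidesmosome, 15 of 20 desmosome, 26 of 37 transcription factor, 20 of 25 p53 response and 10 of 16 Notch genes. High shares of these lists were thus also seen for the whole peak list. The lists were chosen with earlier results of these peaks known, so the counts are no independent evidence of a preference, and no list was tested. A gene was assigned by the midpoint: the protein-coding gene that holds it, or else the one with the nearest end, at any distance.

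**Figure D2:**
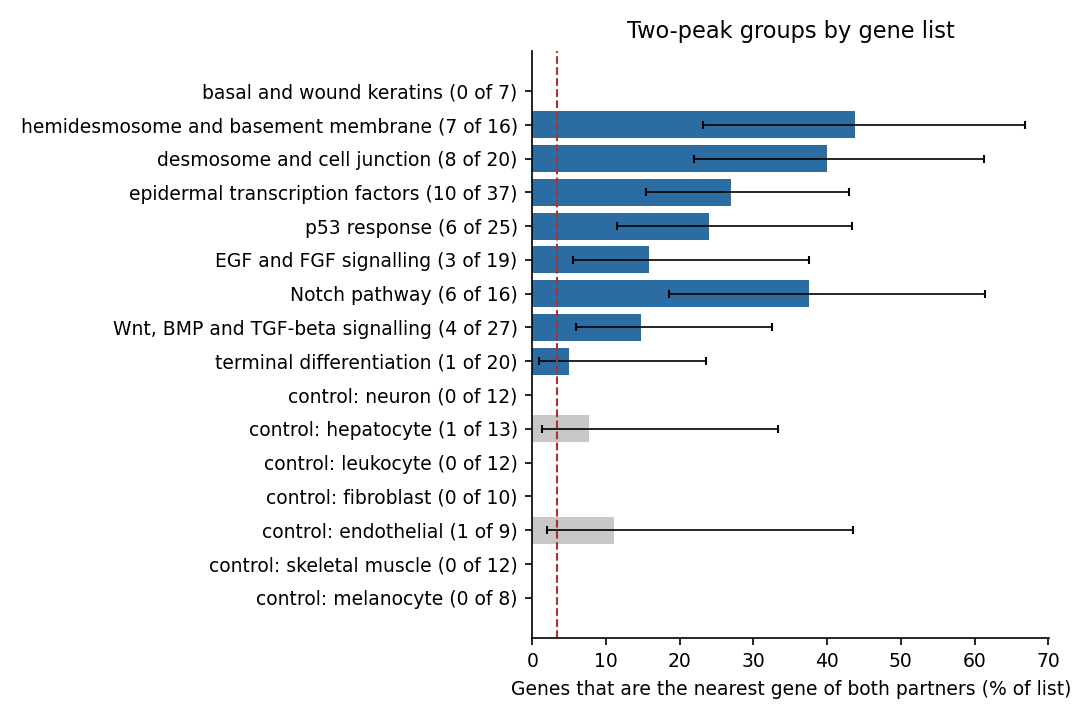
Share of each gene list that was the nearest gene of both partners of a two-peak group, in percent, with 95% Wilson intervals where the count is above 0. Blue bars are keratinocyte and signalling lists, grey bars are lists of other cell types, and the dashed line is the 3.37% of all protein-coding genes. Hemidesmosome, desmosome and Notch lists stand highest, and the basal keratins are at 0.

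Hemidesmosomes anchor basal keratinocytes to the basement membrane. Of 16 genes of this list, 7 had a two-peak group (43.8%, 23.1 to 66.8), among them Itga3, Itga6, Itgb1, Itgb4, Lamb3 and Plec. Itga6, the integrin chain alpha 6, had a 411 bp peak at chr2:71802161-71802571 and a 1009 bp peak at chr2:71805077-71806085, both inside the gene and 3.21 kb apart. The right partner was thus among the widest of all partners, which ranged from 142 to 1195 bp. Plec encodes plectin, which ties keratin filaments to the hemidesmosome, and held peaks of 447 and 415 bp 3.08 kb apart. At Itga3, another laminin-binding integrin chain, peaks of 283 and 555 bp lay 0.78 and 6.27 kb after the start. Groups outside the naming rule had partners of 398 and 250 bp (Itgb4), 179 and 484 bp (Itgb1), and 240 and 239 bp (Lamb3, a laminin chain).

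Desmosomes and other junctions hold keratinocytes together. In this list 8 of 20 genes had a group (40%, 21.9 to 61.3): Cldn1, Dsp, Jup, Nectin1, Nectin4, Perp, Pkp3 and Ppl. Dsp encodes desmoplakin, the desmosomal link to keratin, and held peaks of 478 and 730 bp at 8.05 and 11.62 kb after its start. Nectin4, an adhesion molecule of cell junctions, held peaks of 425 and 587 bp 8.55 kb apart. Ppl encodes periplakin, a plakin of the cornified envelope. Its 404 bp peak lay inside the gene and its 562 bp partner 2.49 kb beyond it. Outside the naming rule, Pkp3 and Perp had closely placed partners, with midpoints 617 and 547 bp apart. Peaks were 479 and 419 bp wide at Pkp3 (plakophilin). Those at Perp, a desmosomal membrane protein induced by p53 and p63, were 237 and 377 bp wide.

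Of 37 epidermal transcription factors, 10 had a group (27%, 15.4 to 43.0): Fosl1, Fosl2, Foxn1, Foxp1, Grhl2, Grhl3, Myc, Runx1, Trp63 and Vdr. Trp63, the gene of p63 itself, held a 356 bp peak at chr16:25835715-25836070 and a 736 bp peak at chr16:25843549-25844284. Its partners lay 8.02 kb apart, and the nearest other peak was 53.1 kb away. Vdr, the vitamin D receptor, held peaks of 404 and 836 bp 4.69 kb apart, at 37.23 and 32.54 kb after the start. Fosl2, a subunit of AP-1, had wide peaks of 719 and 589 bp upstream at -15.23 and -14.35 kb, only 229 bp apart at their edges. Named outside the rule, Grhl3, a barrier-forming grainyhead factor, had nearly equal partners of 342 and 339 bp on either side of the start.

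Of 25 genes of the p53 response, 6 had a group (24%, 11.5 to 43.4): Bax, Ddit4, Gadd45a, Phlda3, Plk2 and Zmat3. Bax, a pore-forming inducer of apoptosis, is 5.2 kb long and carried a peak near each of its ends. These peaks of 305 and 365 bp lay 0.34 and 5.70 kb after the start. Zmat3, an RNA-binding p53 target, held a 537 bp peak, and its 234 bp partner lay 4.47 kb outside the gene. For Plk2, a kinase of the polo family, the nearest partner lay 293.74 kb away, so that Plk2 was the closest annotated gene without being close.

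In the Notch pathway, which drives basal keratinocytes towards differentiation, 6 of 16 genes had a group (37.5%, 18.5 to 61.4): Dll1, Hes1, Jag1, Jag2, Lfng and Maml2. Near Dll1, a Notch ligand, the left partner at chr17:15325713-15326907 was 1195 bp wide, the widest peak of any two-peak group. Its partner of 396 bp began 162 bp further on, and both lay about 40 kb beyond the gene (41.04 and 40.09 kb). Jag2, a Notch ligand of the epidermis, held peaks of 954 and 458 bp at 2.17 and 1.03 kb after its start. Lfng, a glycosyltransferase that modifies Notch receptors, had a 236 bp peak at -2.78 kb and an 897 bp peak at 3.31 kb, so the wider was 3.80 times the narrower. Hes1, a transcriptional target of Notch named outside the rule, had partners of 400 and 252 bp more than 25 kb from the gene.

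The lists of growth factor signalling had lower shares. For EGF and FGF signalling the count was 3 of 19 (15.8%, 5.52 to 37.6) and for Wnt, BMP and TGF-beta signalling 4 of 27 (14.8%, 5.92 to 32.5). Fgfr2, an FGF receptor of the epidermis, had peaks of 631 and 246 bp upstream at -22.19 and -24.10 kb. Met, the receptor of hepatocyte growth factor, held peaks of 377 and 402 bp 2.14 kb apart. Dusp6, a phosphatase that dampens ERK, had peaks of 324 and 212 bp at -25.70 and -20.87 kb. Tgfbr1, a receptor of TGF-beta, had peaks of 251 and 378 bp at -5.22 and -1.28 kb. The partners nearest to Bmp7, a secreted BMP ligand, were 357 and 257 bp wide and 6.25 and 4.55 kb from the gene. Those nearest to Bmp2 and Wnt7b, a BMP and a Wnt ligand, lay at least 146.37 and 60.03 kb away. The 2 Bmp2 partners were both 318 bp wide.

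Of 7 basal and wound keratin genes, which form the filaments of proliferating and injured epidermis, 0 were the nearest gene of both partners. A count of 0 is given here with a limit of 3 counts of the total in place of a Wilson interval, which allows a share of up to 42.9%. Of these keratins, 4 were the nearest gene of a peak. Krt5, the basal type II keratin, had 3 peaks, none in a two-peak group with itself as nearest gene of both partners, and Krt14 and Krt15 had 1 each. In terminal differentiation 1 of 20 genes had a group (5%, 0.888 to 23.6). It was Abca12, the lipid transporter of lamellar granules, with peaks of 275 and 443 bp at -44.58 and -46.44 kb. Of the 2 genes of other cell types, the endothelial Pecam1 held its partners of 388 and 429 bp inside the gene. The partners of the hepatocyte gene Apob, 251 and 253 bp wide, lay 58.10 and 59.34 kb outside it.

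Longer genes were more often the nearest gene of both partners. In 5 equal classes of protein-coding genes from shortest to longest, 1.09%, 1.34%, 2.09%, 4.33% and 8% were the nearest gene of both partners. The 693 genes had a median length of 52.3 kb, against 38.0 kb for the 3908 other genes that were nearest to a peak and 17.6 kb for all. The keratinocyte and signalling lists had a median length of 20.1 kb and the lists of other cell types 22.0 kb. By list, the median was 49.5 kb for hemidesmosome, 34.0 kb for desmosome and 28.5 kb for Notch genes, which had the highest shares. It was 4.35 kb for the basal keratins and 13.3 kb for terminal differentiation, which had the lowest shares of the keratinocyte and signalling lists. The Wnt, BMP and TGF-beta list (31.0 kb) and the neuron list (46.4 kb, 0 genes with a group) did not follow this order. Whether length accounts for the list shares was not tested. Of genes that were nearest to at least 1 peak, a two-peak group was found for 35.2% of 128 keratinocyte and signalling genes, 16.7% of 12 genes of other cell types and 15.1% of all 4601. Counting instead every gene with both partners in its body or up to 25 kb from its ends, so that a group could count for several genes, gave 41 of the 187 genes (21.9%) and 959 of all 20560 (4.66%).

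Most genes with a two-peak group had a single one. Of the 693 genes, 630 had 1 group, 56 had 2 and 7 had 3: Spred2, Nectin1, Rbms3, Foxp1, Jag1, Fat1 and Med13l. Spred2, an inhibitor of Ras and ERK signalling, had 2 groups upstream and 1 inside, and the inside group paired peaks of 684 and 616 bp 9.93 kb apart. Nectin1, a cell adhesion molecule, had a group inside the gene and a group on each side of it. Its partners were 747 and 390 bp, 214 and 500 bp, and 356 and 246 bp wide. At Jag1, a Notch ligand, 1 group lay inside at 8.29 and 5.76 kb after the start, and the other groups lay at -137.57 and -146.51 kb and at -292.08 and -297.08 kb. All 3 groups at Foxp1, a forkhead factor, and at Rbms3, an RNA-binding protein, lay inside those genes, which are 597.4 and 1057.2 kb long.

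Far groups were assigned to the closest annotated gene whatever the distance. The 3 groups at Fat1, an atypical cadherin, lay upstream between 50.24 and 262.23 kb from the gene. At Med13l, a subunit of the Mediator complex, 1 group lay 387.89 kb away. Next by count and peak width came Ankrd11, Ptpn1, Src, A1bg and Sorcs2 with 2 groups each. Src, a tyrosine kinase of cell adhesions, had a group upstream, with peaks of 250 and 757 bp only 58 bp apart, and a group inside, with peaks of 457 and 513 bp. Ptpn1, a tyrosine phosphatase, had near-equal partners in both groups, 532 and 555 bp in the one and 503 and 489 bp in the other. The groups named for A1bg lay 184.86 to 376.78 kb from that 3.7 kb gene on chromosome 15. A peak near a gene does not show that it controls the gene.

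**Figure D3:**
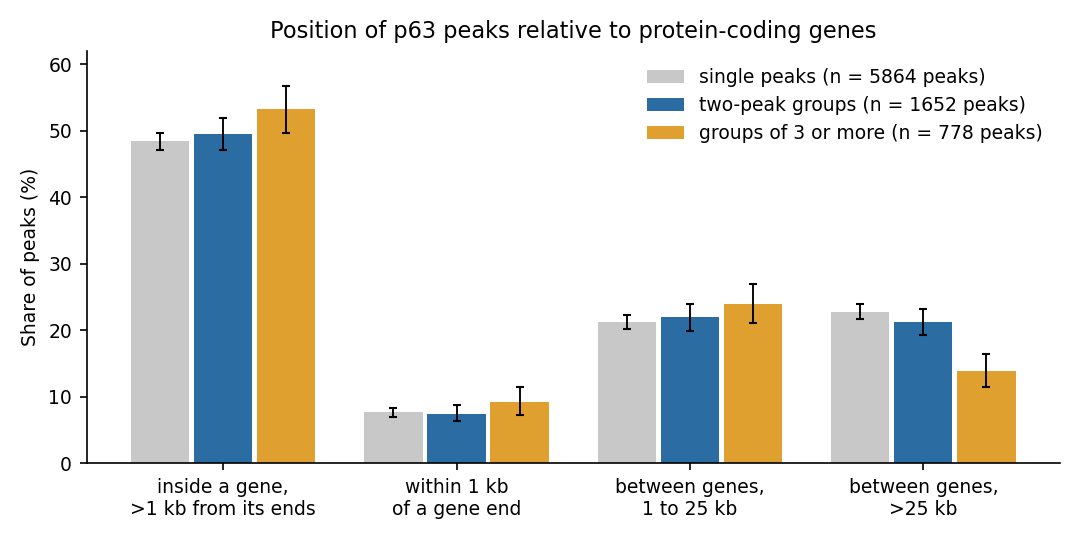
Share of p63 peaks in 4 classes of position relative to protein-coding genes, in percent with 95% Wilson intervals, for single peaks, partners of two-peak groups and peaks of longer groups. Two-peak groups stand close to single peaks in all 4 classes, and longer groups have a lower share (13.8%) over 25 kb from any gene.

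In position, the partners resembled the other peaks of the list, and the 2 partners of a group mostly shared their setting. Of the 1652 partners, 818 lay inside a protein-coding gene more than 1 kb from its ends (49.5%, 47.1 to 51.9; all peaks 49.1%). Within 1 kb of a gene end lay 123 (7.45%, 6.28 to 8.81; all peaks 7.74%). Between genes, 361 lay 1 to 25 kb from a gene end (21.9%, 19.9 to 23.9; all peaks 21.6%) and 350 lay farther out (21.2%, 19.3 to 23.2; all peaks 21.6%). In each class the interval included the share of all peaks. Exons and introns were not told apart.

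Both partners lay inside the same gene in 397 of the 826 groups (48.1%, 44.7 to 51.5) and both outside genes in 345 (41.8%, 38.4 to 45.2). In 67 groups 1 partner lay inside and 1 outside, and in 17 the partners lay in different genes. A gene end fell between the partners in 97 groups (11.7%, 9.72 to 14.1). The same nearest gene was shared in 763 groups (92.4%, 90.4 to 94.0), and in 317 of the 345 groups outside genes (91.9%, 88.5 to 94.3). The share was 97.5% at a spacing of up to 1 kb, 96.3% up to 3 kb, 89.5% up to 6 kb and 89.2% beyond. Of 458 pairs of neighbouring single peaks 10 to 20 kb apart, which lie farther from each other by construction, 77.9% shared a nearest gene (73.9 to 81.5) and 39.1% lay in 1 gene (34.7 to 43.6). Of 550 pairs of consecutive peaks in groups of 3 or more, 93.6% shared a nearest gene (91.3 to 95.4) and 50% lay in 1 gene (45.8 to 54.2). A shared setting was therefore not particular to two-peak groups.

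A whole protein-coding gene stood between the partners in 7 groups, which are named here after their values were seen. The small genes enclosed were Capns2, Odc1, the histone genes H3c11 and H2ac22 together, Gm45521, Ly6d, Catsperz and Fgfbp3. Around Ly6d, a Ly6 family surface protein of keratinocytes, peaks of 637 and 263 bp lay 0.93 and 1.77 kb outside the gene. Around Odc1, the rate-limiting enzyme of polyamine synthesis, peaks of 299 and 295 bp lay 2.03 and 1.02 kb outside. The Ly6d partners were 4.21 kb and the Odc1 partners 9.75 kb apart. Capns2, a calpain small subunit, lies within Lpcat2, the nearest gene of both its flanking peaks.

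Along the gene, the partners lay before or after the start in shares like those of the other peaks. Taken singly, 842 of 1269 partners with a listed start for their nearest gene lay downstream of it (66.4%, 63.7 to 68.9), against 66.9% of single peaks (65.5 to 68.3) and 66.9% of all peaks (65.8 to 68.1). For 586 of the 745 same-gene groups on chromosomes with promoter windows, a start was listed. Both partners lay downstream of the start nearest to them in 368 (62.8%, 58.8 to 66.6), both upstream in 176 (30.0%, 26.5 to 33.9) and on either side in 42 (7.17%, 5.35 to 9.55). The nearest listed start can be an internal one, so partners upstream of it can still lie inside the gene. At Foxp1, for instance, groups inside the gene lay at -102.79 and -103.64 kb and at -117.86 and -126.16 kb. The nearer partner lay within 1 kb of the start in 42 groups and more than 25 kb away in 299 (51.0%, 47.0 to 55.1), with a median of 26.1 kb. The nearer partner was the wider in 284 groups (48.5%, 44.4 to 52.5), and median widths were 312 bp for the nearer and 321 bp for the farther. Nearness to the start therefore did not go with a wider peak in these groups.

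**Figure D4:**
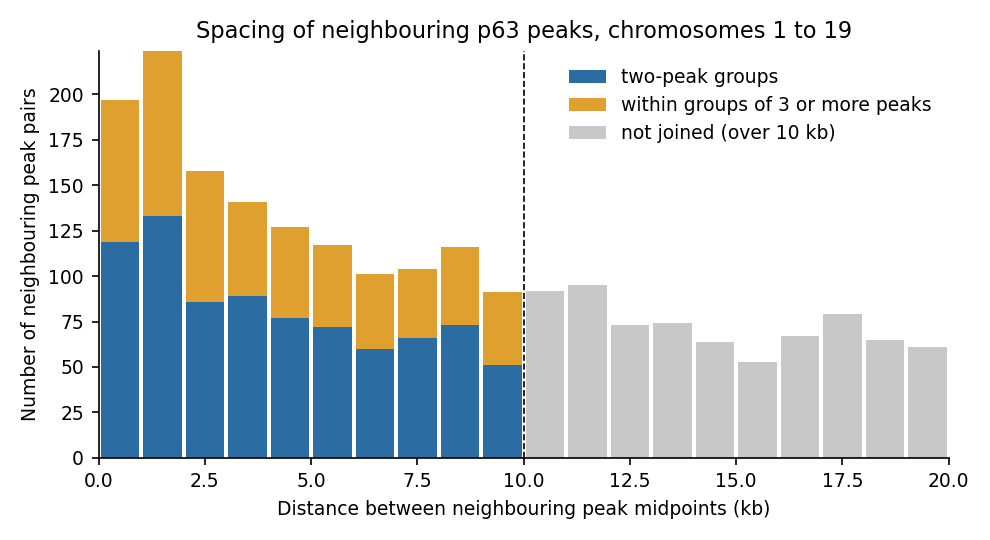
Number of neighbouring peak pairs by the distance between midpoints, in bins of 1 kb, stacked by membership. The dashed line marks the 10 kb limit that defined the groups. Counts fall from 224 at 1 to 2 kb to 91 at 9 to 10 kb and 92 at 10 to 11 kb, with no step at the limit.

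Short spacings were the most frequent among partners. The midpoints lay 0.331 to 9.98 kb apart, with a median of 3.79 kb and quartiles of 1.65 and 6.64 kb. The 10 bins of 1 kb held 119, 133, 86, 89, 77, 72, 60, 66, 73 and 51 groups. In 252 groups (30.5%, 27.5 to 33.7) the spacing was at most 2 kb, and in 504 (61.0%, 57.6 to 64.3) at most 5 kb. Consecutive peaks of longer groups had a median spacing of 3.71 kb (n = 550).

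The limit of 10 kb did not fall at a break in the data. Over all neighbouring peaks the count was 91 between 9 and 10 kb, 92 between 10 and 11 kb and 61 between 19 and 20 kb. The widest groups kept stood at Zbtb8b (9.94 kb), Foxo3 (9.97 kb) and Ergic1 (9.98 kb). Among neighbours that were both single peaks, the closest had the nearest genes Cyp26b1 (10.01 kb), L3mbtl3 (10.02 kb) and Agrp and Ripor1 (10.03 kb). A limit of 5 kb in place of 10 kb gave 606 groups, of which 504 were among the 826. Their median spacing, bounded by the limit, was 1974.2 bp.

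The closest partners nearly touched. Between facing edges the gap ranged from 57 bp to 9.75 kb, and it was at most 200 bp in 40 groups (4.84%, 3.58 to 6.53) and at most 500 bp in 95 (11.5%, 9.50 to 13.9). The 5 smallest spacings were at Afap1l2 (331 bp), upstream of Fat1 (341 bp), at Megf6 (348.5 bp), at the boundary of Brms1 and Rin1 (351 bp) and at Col8a1, a short-chain collagen (358 bp). Whether such partners were 1 enriched region divided during peak calling was not tested. Joining peaks with edges at most 500 bp apart first, an alternative chosen after seeing the data, gave 766 groups with a median spacing of 4356.2 bp.

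The median spacing was longer where the partners lay in different settings. The median was 3.56 kb for the 702 groups with both partners in the same of the 4 position classes described above (quartiles 1.44 and 6.51 kb) and 4.95 kb for the 124 with partners in different classes (quartiles 2.74 and 7.29 kb). Midpoints farther apart can more easily fall on different sides of a class limit, and spacing was used to choose the groups. The difference is therefore a description and was not tested. Among narrower settings, the median was 3.53 kb for the 397 groups inside 1 gene, 3.70 kb for the 168 groups with both partners between genes more than 25 kb away, 3.18 kb for the 140 with both partners 1 to 25 kb from a gene and 3.20 kb for the 100 with a partner within 1 kb of a gene end. Beyond the group itself, the nearest other peak was a median of 38.4 kb away (quartiles 20.1 and 84.7 kb). It lay within 20 kb for 204 groups (24.7%, 21.9 to 27.8) and more than 100 kb away for 175 (21.2%, 18.5 to 24.1). By chromosome, 13.3% (chromosome 18) to 25.1% (chromosome 15) of the peaks belonged to two-peak groups.

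**Figure D5:**
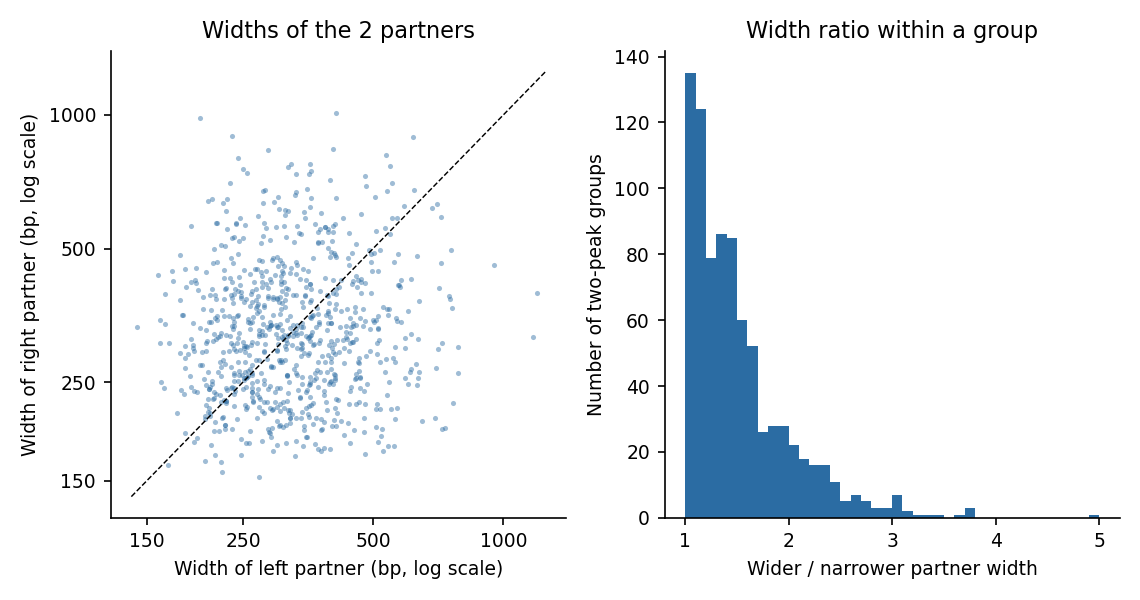
Left, width of the left against the width of the right partner in bp on log axes for the 826 groups, with the line of equal width dashed. Right, number of groups by the ratio of the wider to the narrower partner. The cloud shows little relation between partners, and most ratios lie under 2.

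The width of a partner told little about the width of the other. Over the 826 groups Spearman's rho between left and right width was 0.07, and Pearson's r on log2 width was 0.07. The peaks share libraries and peak calling, so these coefficients are descriptions. Beside them, rho was 0.02 for 4962 pairs of neighbouring single peaks, 0.09 for 550 consecutive pairs in longer groups and -0.07 for 458 neighbouring single peaks 10 to 20 kb apart. By spacing, rho was 0.03 up to 1 kb (119 groups), 0.17 from 1 to 3 kb (219), 0.08 from 3 to 6 kb (238) and 0.00 from 6 to 10 kb (250). No order by spacing can be read from values this weak.

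The median width of partners was slightly above that of single peaks. Their median width was 316 bp (quartiles 249 and 406), against 299 bp for single peaks (239 and 382) and 338.5 bp for peaks of longer groups (256 and 441.8). This order held inside genes (317.5, 296 and 340.5 bp), within 1 kb of a gene end (321, 301.5 and 323 bp), at 1 to 25 kb (315, 307 and 334 bp) and beyond 25 kb (308, 298 and 358 bp). The differences are small beside the spread of each class and were not tested.

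Within a group, the narrower partner had a median of 261 bp and the wider 386 bp, and the median ratio was 1.39 (quartiles 1.16 and 1.70). For neighbouring single peaks the median ratio was 1.37. The wider partner was at least 2 times the narrower in 124 groups (15.0%, 12.7 to 17.6), against 14.8% of neighbouring single peaks (13.8 to 15.8). The right partner was the wider in 416 groups (50.4%, 47.0 to 53.8), and the partners were equal in 2. Relative to the median of all peaks, both partners were wider in 245 groups, 1 in 393 and neither in 188. Spacing was unrelated to the mean width (rho = -0.01) and to the ratio (rho = 0.05) over the 826 groups.

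The extremes of width fell at named genes. The ratio was largest at a group 50.89 to 55.80 kb from Ate1, an arginyltransferase, where peaks of 199 and 982 bp gave 4.93. Lfng followed at 3.80 and Rab31, a small GTPase of vesicle transport, at 3.72, with peaks of 732 and 197 bp inside the gene. Groups in which both partners were wide were found near Prex1, a Rac exchange factor (701 and 629 bp), in Rbms1, an RNA-binding protein (623 and 676 bp), in Ankrd11, a chromatin regulator (617 and 890 bp), in Spred2 (684 and 616 bp) and upstream of Fosl2 (719 and 589 bp). Their spacings ranged from 0.88 kb at Fosl2 to 9.93 kb at Spred2.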

How the data were processed

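Positions were measured for p63 in the keratinocyte lines MK1 and MK2. Per the labels, the authors made the deposited peak list by running IDR on both p63 libraries, from 50 bp single-end reads. Bowtie 1.1.1, SAMtools 1.1 and the build mm10 are named in the submitters' processing notes, while for the peak caller and thresholds the entry is: not given in the sources used here. Deposited values are coordinates (chromosome, start, end), with no counts, so depth is unknown and a missing peak can mean too few reads. Starts were converted to 1-based positions.

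Genes came from the RefSeq table of GRCm38.p6, whose chromosomes match mm10: of 47042 entries on chromosomes 1 to 19, 328 with ends below 3 Mb (positions of scaffolds) were left out and 20560 of the rest are protein-coding. Promoter windows came from a RefSeq table of the same assembly. Midpoints at most 10 kb apart were joined, and a nearest gene was assigned as stated in the report. Python 3.11.15, numpy 2.4.6, pandas 2.3.3, scipy 1.17.1 and matplotlib 3.10.9 were used, and the steps were checked on simulated data. No comparison was tested: shares carry Wilson intervals.

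Named were genes with most groups (at most 12), up to 4 per list by summed width, the groups extreme in spacing, width or ratio, and the 6 widest peaks on promoters. Some other genes were named outside this rule. Members, lists and this rule were chosen with earlier results of these data known. Alternatives were other joining distances, edges in place of midpoints, narrow peaks left out, chromosomes X and Y, all annotated genes and other gene assignments. Libraries other than p63, and chromosomes X and Y in the main values, were left out. A gene that the rule named is not reported here.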

Additional observations from a re-analysis of the deposited data

How the results depend on the processing

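The number of groups stayed within 1.5 times of 826 under all 6 alternatives, from 571 without peaks of up to 242 bp to 968 with a joining distance of 20 kb. Membership changed more than the number. Of the 826 groups, 506 (61.3%) remained without the narrow peaks, 504 (61.0%) at 5 kb and 622 (75.3%) at 20 kb. Shortening the joining distance to 5 kb gave a median spacing of 1974.2 bp, rho 0.14 between partner widths and 94.6% with the same nearest gene. Lengthening it to 20 kb gave 7168.2 bp, 43.2% inside 1 gene and 87.1% with the same nearest gene. Spacing moves with the limit by construction. Merging peaks with edges at most 500 bp apart first, chosen after seeing the data, gave 4356.2 bp. Without these narrow peaks, median width was 356 bp. Counting all annotated genes gave 55.4% inside 1 gene and 85.0% with the same nearest gene, and requiring both peaks within 25 kb gave 71.2%. The other 32 values moved by less than their interval or, for the number of groups, stayed within 1.5 times. No paired analysis was possible because the list pools both lines. Depth is unknown, so which single peaks have an uncalled partner cannot be said.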
